A study of Homo sapiens with 8 samples.

Results

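The 10 genes described here are the core of the hypoxia-inducible factor (HIF) pathway and 3 vascular endothelial growth factor (VEGF) ligands: HIF1A, EPAS1, ARNT, EGLN1, EGLN2, EGLN3, VHL, VEGFA, VEGFB and VEGFC. They were taken by gene symbol from the deposited count and FPKM tables, which hold 61552 genes. All 10 were found, and all 10 were among the 15923 genes that passed the filter on low counts. RNA-seq was performed on 2 human triple-negative breast cancer cell lines, the parental MDA-MB-231 and MDA231-LM2 (LM2), which was derived from it and metastasises to the lung, each carrying a hairpin against TAF7 (shTAF7) or a control hairpin. The 4 groups were LM2 shTAF7, LM2 control, MDA-MB-231 shTAF7 and MDA-MB-231 control, with 2 libraries each, numbered 2 and 3. TAF7 is a subunit of the general transcription factor TFIID. All groups grew in DMEM with 10% serum under 5% CO2 at 37 °C, and the labels describe no low-oxygen treatment. Only 1 hairpin against TAF7 (shRNA number 3) was used, so an effect of TAF7 loss cannot be told apart from other effects of that hairpin. Whether the libraries of a group came from separate cultures is not stated, so p-values measure the spread between libraries only.

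HIF is a dimer of an oxygen-sensitive alpha subunit, HIF-1 alpha (HIF1A) or HIF-2 alpha (EPAS1), and the constitutive beta subunit ARNT. When oxygen is present, the prolyl hydroxylases EGLN1, EGLN2 and EGLN3 modify the alpha subunits, and the VHL ubiquitin ligase then binds them and directs their degradation. When oxygen is low, the dimer binds hypoxia response elements with the core letters ACGTG or GCGTG and activates genes such as VEGFA. Control of the alpha subunits lies mainly at the protein level, which RNA-seq does not measure. In bulk RNA, fewer cells of a type and less RNA per cell cannot be told apart.

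Library totals ranged from 17217776 to 20292291 counts, so 1 read was worth 0.0488 to 0.0583 CPM (the count scaled to the size of the library). TAF7 itself had 142.3 and 148.3 CPM in LM2 shTAF7 libraries, against 195.3 and 196.5 CPM in LM2 control libraries. It had 107.6 and 105.4 CPM in MDA-MB-231 shTAF7 libraries, against 179.2 and 184.6 CPM in MDA-MB-231 control libraries. TAF7 fell in both lines, by 0.43 ± 0.07 (SE) on the log2 scale in LM2 and by 0.77 ± 0.07 in MDA-MB-231 (Benjamini-Hochberg adjusted p = 8.42e-07 and 4.01e-12, quasi-likelihood test of edgeR). The reduction was smaller in LM2 (difference 0.34 ± 0.09, adjusted p = 0.00544 by edgeR), although without MDA-MB-231 control replicate 3 that adjusted p was 0.0513. The mesenchymal markers VIM, CD44, AXL, CAV1 and MSN were present in every library, summing to 3703 to 5126 CPM. ESR1 and PGR, the hormone receptors, had at most 5 and 1 counts. They belong to a list of 7 hormone receptor, HER2 and luminal markers that was not absent as a whole, summing to 108 to 174 CPM. Group means in that list were 55.1 to 73.1 CPM for ERBB2, 32.0 to 79.4 CPM for KRT19, 5.83 to 10.1 CPM for EPCAM and 5.45 to 8.75 CPM for GATA3. The summed level of 7 endothelial markers, the cells on which VEGF mainly acts, was 4.58 to 4.75 CPM in LM2 shTAF7, 7.41 to 10.1 CPM in LM2 control, 7.12 to 7.41 CPM in MDA-MB-231 shTAF7 and 4.14 to 5.10 CPM in MDA-MB-231 control. Most of that sum came from PECAM1 and TIE1. PECAM1 averaged 1.06 CPM in LM2 shTAF7, 3.46 in LM2 control, 6.68 in MDA-MB-231 shTAF7 and 3.95 in MDA-MB-231 control. TIE1 averaged 2.90, 4.01, 0.112 and 0.350 CPM in the same order. CDH5, the vascular cadherin, had 0 to 3 counts. The 5 fibroblast markers summed to 14.7 to 16.5, 27.2 to 33.0, 7.11 to 7.95 and 8.28 to 9.41 CPM in the same 4 groups. In LM2 the sum came mostly from COL1A1. In MDA-MB-231 it came from COL1A1 and PDGFRB, with means of 4.28 and 3.10 CPM with shTAF7 and 4.54 and 4.26 CPM with control. The part of either marker list in the results was not tested.

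To show where the letters that HIF recognises stand at the members' own starts, promoter windows were read from RefSeq (GRCh38.p14, 250 bases before to 50 after the start), which matched 8 of the 10 members. VHL and VEGFA were not matched. ACGTG or GCGTG, read on either strand, stood in 6 of the 10 windows of the 8 matched members (HIF1A and EGLN2 have 2 windows each, and the second of each held no match), against 48.4% of all 35116 promoter windows in the RefSeq table. ACGTG alone was in 21.4% of the windows and GCGTG alone in 36.5%. The matched stretches follow on the strand of each gene, 5′ to 3′, with the match in capitals. EPAS1, which had the largest knockdown change of the 10 in LM2, is shown over the 250 bases before its start (chr2:46297157-46297406, plus strand), and the others over 41 bases.
HIF1A: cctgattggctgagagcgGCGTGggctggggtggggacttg
EPAS1: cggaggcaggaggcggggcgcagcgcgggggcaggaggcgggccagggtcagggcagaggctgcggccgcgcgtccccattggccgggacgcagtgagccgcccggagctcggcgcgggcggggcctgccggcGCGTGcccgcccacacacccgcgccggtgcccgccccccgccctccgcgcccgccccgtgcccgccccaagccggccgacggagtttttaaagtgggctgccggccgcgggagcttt
EGLN1: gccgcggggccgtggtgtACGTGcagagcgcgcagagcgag
EGLN2: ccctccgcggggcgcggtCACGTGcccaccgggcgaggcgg
VEGFB: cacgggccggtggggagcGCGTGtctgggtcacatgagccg
VEGFC: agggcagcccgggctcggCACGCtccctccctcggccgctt

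The HIF1A stretch lies at chr14:61695291-61695331 (plus strand), the EGLN1 stretch at chr1:231422278-231422318 (minus strand) and the EGLN2 stretch at chr19:40799124-40799164 (plus strand). The VEGFB stretch lies at chr11:64234505-64234545 (plus strand) and the VEGFC stretch at chr4:176792959-176792999 (minus strand). In EGLN2 the capitals are the palindrome CACGTG, in which ACGTG matches on both strands. CACGTG was in 7.26% of all windows. In VEGFC the capitals read CACGC, which is GCGTG on the other strand. Counted from the start, the first matched base was at -204 in HIF1A, -117 in EPAS1, -13 in EGLN1, -49 in EGLN2, -61 in VEGFB and -59 in VEGFC. The ARNT and EGLN3 windows held neither motif. A match stood in genes called on knockdown in LM2 (HIF1A, EPAS1, EGLN1 and VEGFB) and in genes not called there (EGLN2 and VEGFC), and it describes the letters, not HIF binding.

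The alpha subunits differed from each other. HIF1A fell on knockdown in both lines, and EPAS1 fell to 24.4% of control in LM2 with a change of -0.11 (log2) in MDA-MB-231 that did not pass the test. HIF1A had 181.7 and 170.8 CPM in LM2 shTAF7 libraries, against 242.1 and 264.0 CPM in LM2 control libraries. It had 214.0 and 187.6 CPM in MDA-MB-231 shTAF7 libraries, against 273.6 and 276.7 CPM in MDA-MB-231 control libraries. Every shTAF7 library lay below every control library of its line. HIF1A fell by 0.52 ± 0.07 on the log2 scale in LM2, to 69.6% of control (adjusted p = 5.18e-08 by edgeR), and by 0.46 ± 0.07 in MDA-MB-231, to 72.9% of control (adjusted p = 2.91e-06 by edgeR). The difference between the 2 reductions was -0.07 ± 0.10, with a 95% interval of -0.27 to 0.13. HIF1A-AS3 and HIF1A-AS1 are antisense RNAs that overlap HIF1A, and the strand setting of the counting is not given, so their reads and those of HIF1A cannot be told apart. HIF1A-AS3 was listed at 23.3 and 23.3 CPM in LM2 shTAF7, 21.3 and 17.8 CPM in LM2 control, 5.19 and 6.83 CPM in MDA-MB-231 shTAF7 and 6.45 and 6.15 CPM in MDA-MB-231 control.

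EPAS1 had 24.8 and 21.3 CPM in LM2 shTAF7 libraries, against 87.8 and 101.0 CPM in LM2 control libraries. It had 43.3 and 40.7 CPM in MDA-MB-231 shTAF7 libraries, against 44.8 and 46.1 CPM in MDA-MB-231 control libraries. The LM2 control libraries were thus the highest of the 8 and the LM2 shTAF7 libraries the lowest. EPAS1 fell by 2.04 ± 0.09 on the log2 scale in LM2, to 24.4% of control (adjusted p = 2.08e-24 by edgeR). In MDA-MB-231 the change was -0.11 ± 0.08, with a 95% interval of -0.28 to 0.06 (adjusted p = 0.363 by edgeR). The difference between the lines was itself past the threshold, at -1.92 ± 0.12 (adjusted p = 2.3e-17 by edgeR). ARNT, the beta subunit shared by both alpha subunits, averaged 41.4 ± 4.01 CPM in LM2 shTAF7, 45.2 ± 5.29 in LM2 control, 40.0 ± 6.21 in MDA-MB-231 shTAF7 and 39.0 ± 1.15 in MDA-MB-231 control (SD, n = 2 each). Its libraries overlapped between shTAF7 and control in both lines, and neither knockdown change passed the test (-0.13 ± 0.09 in LM2 and 0.03 ± 0.09 in MDA-MB-231).

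**Figure D1:**
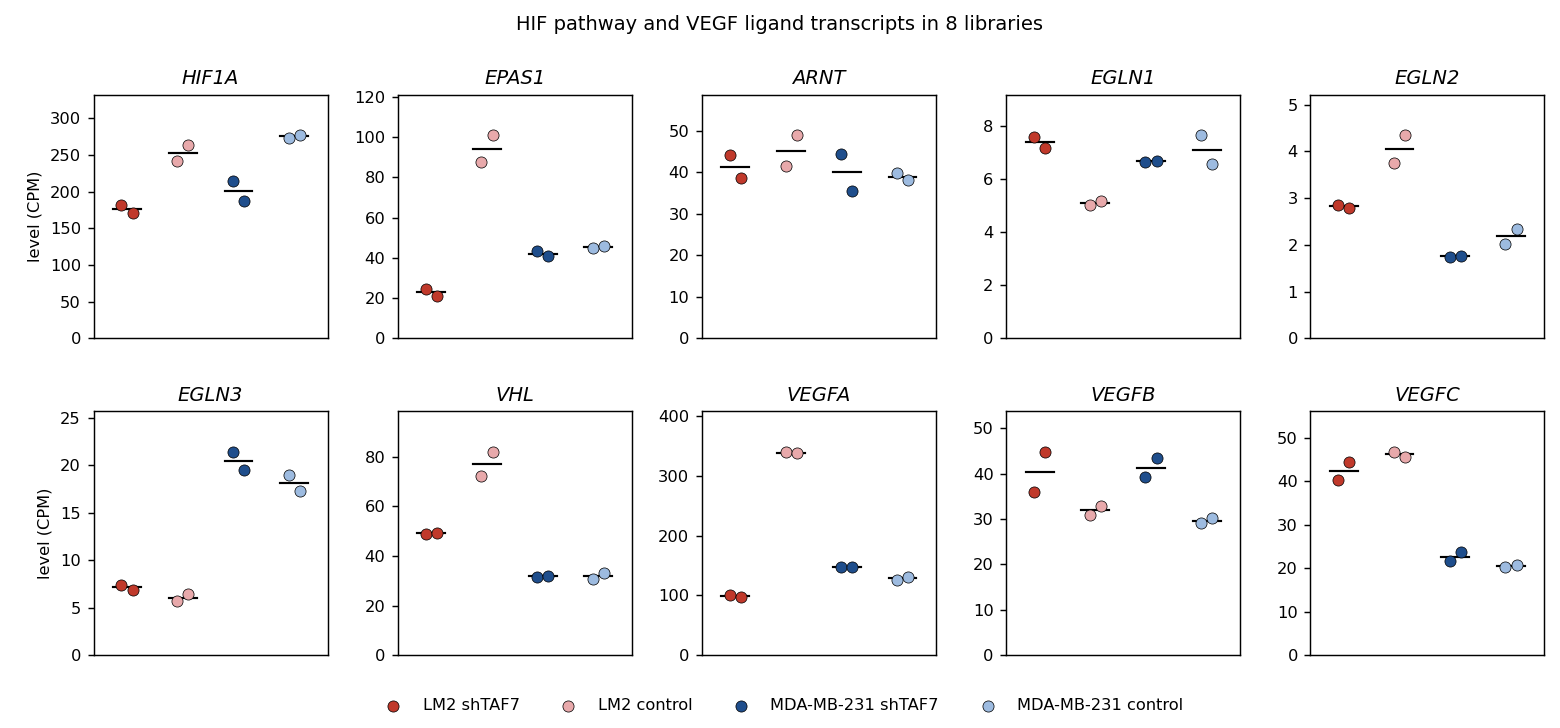
Level of each of the 10 genes in CPM in every library, in LM2 shTAF7, LM2 control, MDA-MB-231 shTAF7 and MDA-MB-231 control; each point is 1 library, 2 per group, and the black line is their mean. EPAS1 and VEGFA are highest in the LM2 control libraries (87.8 and 101.0 CPM, and 340.0 and 338.3 CPM), while EGLN3 is high in MDA-MB-231 and low in LM2 whichever hairpin is present.

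Among the hydroxylases, the knockdown changes were small or rested on few reads, and the clearest pattern was a difference of EGLN3 between the lines. EGLN1, the main hydroxylase that keeps HIF-1 alpha low in normal oxygen, had 7.59 and 7.18 CPM in LM2 shTAF7 libraries, against 5.01 and 5.18 CPM in LM2 control libraries. It had 6.65 and 6.68 CPM in MDA-MB-231 shTAF7 libraries, against 7.64 and 6.54 CPM in MDA-MB-231 control libraries. These levels correspond to only 91 to 147 counts per library. EGLN1 rose in LM2 by 0.53 ± 0.17 on the log2 scale (adjusted p = 0.00993 by edgeR) and its value in MDA-MB-231 was -0.09 ± 0.16. The LM2 call ended without LM2 shTAF7 replicate 2 (adjusted p = 0.0503) or without LM2 control replicate 2 (adjusted p = 0.059), and with limma on log2(FPKM + 1) (adjusted p = 0.0511).

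EGLN2, a second hydroxylase, had 2.85 and 2.80 CPM in LM2 shTAF7 and 3.74 and 4.35 CPM in LM2 control, with 1.75 and 1.76 CPM in MDA-MB-231 shTAF7 and 2.03 and 2.35 CPM in MDA-MB-231 control. The shTAF7 libraries were below the control libraries in both lines, but neither change passed the test (-0.52 ± 0.24 with adjusted p = 0.0768 in LM2, and -0.32 ± 0.28 with adjusted p = 0.462 in MDA-MB-231, edgeR). On log2(FPKM + 1) and log2(FPKM + 0.1), which lack the TMM scaling of the edgeR fit, limma called EGLN2 lower in LM2 (adjusted p = 0.0169 and 0.0397). EGLN2 had 30 to 78 counts, and the readthrough gene RAB4B-EGLN2, which overlaps it, was listed at 0 in all 8 libraries, so its level is uncertain. EGLN3, a hydroxylase that is itself a HIF target, had 7.42 and 6.92 CPM in LM2 shTAF7 and 5.67 and 6.41 CPM in LM2 control, with 21.4 and 19.5 CPM in MDA-MB-231 shTAF7 and 19.0 and 17.3 CPM in MDA-MB-231 control. Every shTAF7 library was above every control library of its line, by 0.25 ± 0.16 on the log2 scale in LM2 and 0.17 ± 0.11 in MDA-MB-231, and neither difference passed the test (adjusted p = 0.206 and 0.315, edgeR).

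VHL, which recognises the hydroxylated alpha subunits, fell in LM2. It had 49.0 and 49.3 CPM in LM2 shTAF7 libraries, against 72.0 and 81.8 CPM in LM2 control libraries, a reduction of 0.65 ± 0.08 on the log2 scale to 63.9% of control (adjusted p = 4.29e-09 by edgeR). In MDA-MB-231 it had 31.3 and 32.1 CPM with shTAF7, against 30.6 and 33.1 CPM with control, and the libraries overlapped (95% interval of the change -0.18 to 0.17). The difference between the lines was -0.64 ± 0.12 (adjusted p = 4.04e-05 by edgeR).

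The 3 ligands moved in different ways. VEGFA, the main angiogenic ligand and a HIF target, had 100.9 and 97.3 CPM in LM2 shTAF7 libraries, against 340.0 and 338.3 CPM in LM2 control libraries. It had 147.1 and 147.3 CPM in MDA-MB-231 shTAF7 libraries, against 126.3 and 130.9 CPM in MDA-MB-231 control libraries. The LM2 control libraries stood far above the other 6, and the shTAF7 libraries lay below control in LM2 and above it in MDA-MB-231. VEGFA fell in LM2 by 1.78 ± 0.07 on the log2 scale, to 29.2% of control (adjusted p = 3.22e-26 by edgeR). It rose in MDA-MB-231 by 0.20 ± 0.07 (adjusted p = 0.0279 by edgeR). That increase lost its call in 7 of 15 alternatives, among them leaving out any 1 of the 4 MDA-MB-231 libraries (shTAF7 replicate 2, adjusted p = 0.0813; shTAF7 replicate 3, 0.0902; control replicate 2, 0.295; control replicate 3, 0.151). The difference between the lines was -1.97 ± 0.10 (adjusted p = 1.73e-21 by edgeR).

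VEGFB, a ligand of the receptor FLT1, had 36.0 and 44.7 CPM in LM2 shTAF7 libraries, against 30.9 and 32.9 CPM in LM2 control libraries. It had 39.1 and 43.5 CPM in MDA-MB-231 shTAF7 libraries, against 29.1 and 30.2 CPM in MDA-MB-231 control libraries. The groups did not overlap in either line. VEGFB rose by 0.34 ± 0.09 on the log2 scale in LM2 (adjusted p = 0.00262 by edgeR) and by 0.48 ± 0.09 in MDA-MB-231, to 139.7% of control (adjusted p = 9.85e-05 by edgeR). Without LM2 shTAF7 replicate 3 the LM2 change was 0.19 and lost its call (adjusted p = 0.168), as it did with limma on log2(FPKM + 1) (adjusted p = 0.136). VEGFC, the lymphangiogenic ligand, had 40.4 and 44.4 CPM in LM2 shTAF7 and 46.7 and 45.6 CPM in LM2 control, with 21.7 and 23.7 CPM in MDA-MB-231 shTAF7 and 20.3 and 20.9 CPM in MDA-MB-231 control. Its knockdown changes were -0.12 ± 0.08 in LM2 and 0.15 ± 0.10 in MDA-MB-231, and neither passed edgeR's test (adjusted p = 0.246 and 0.301). On log2(FPKM + 1), which lacks the TMM scaling of the edgeR fit, limma called VEGFC lower in LM2 (-0.24, adjusted p = 0.0181).

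**Figure D2:**
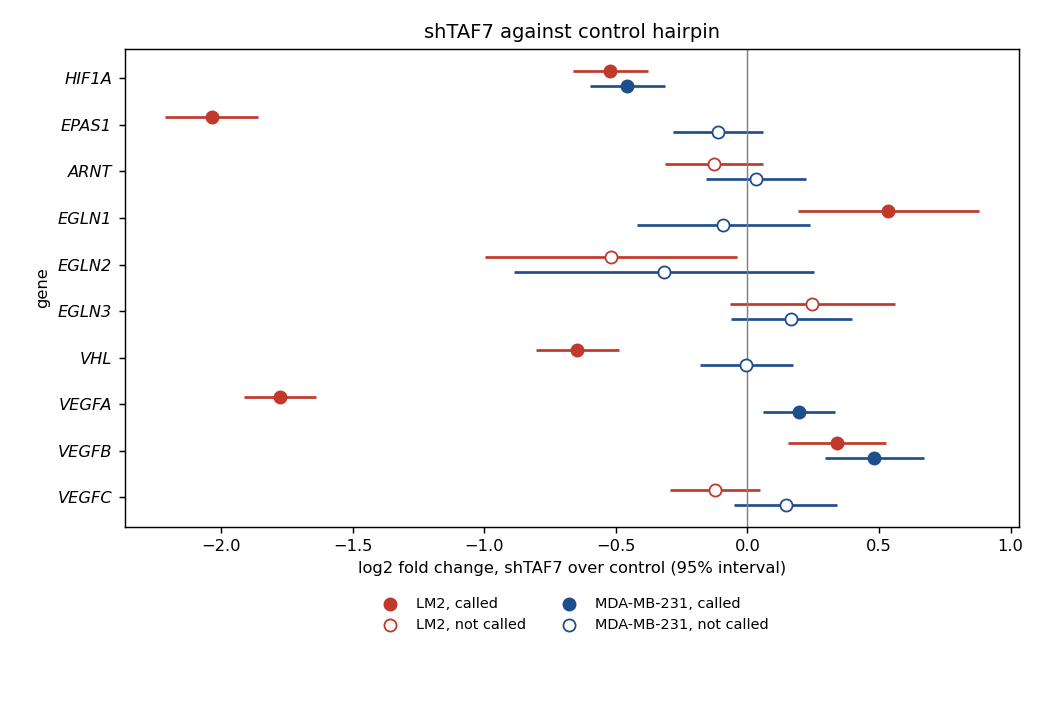
Log2 fold change of each gene, shTAF7 over control, in LM2 and in MDA-MB-231, with 95% intervals from edgeR; filled points passed an adjusted p of 0.05. EPAS1 (-2.04) and VEGFA (-1.78) stand far to the left in LM2, and HIF1A lies at about the same place in both lines (-0.52 and -0.46).

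In LM2, 2 of the 10 genes rose and 4 fell, while 41.3% of all tested genes were called, 21.8% higher and 19.4% lower. The median log2 change of the 10 was -0.32, against -0.02 for all tested genes. The calls of HIF1A, EPAS1, VHL and VEGFA held in all 15 alternatives, and those of EGLN1 and VEGFB did not. The split of all calls in LM2 turned on the scale: it was 3478 higher and 3092 lower with edgeR, and 1893 higher and 4014 lower with limma on log2(FPKM + 1). The limma fits lack the TMM scaling of the edgeR fit. With limma on log2(FPKM + 1) the median of all genes was -0.07. On log2(FPKM + 0.1) it was -0.13, and all 6 members then called were lower. In MDA-MB-231, 2 of the 10 rose and 1 fell, where 25.6% of all tested genes were called (12.6% higher and 12.9% lower), and the median was 0.01 for the 10 and 0.01 for all genes. The MDA-MB-231 total of 4070 called genes was 2031 without control replicate 2, 2279 without control replicate 3 and 2362 without shTAF7 replicate 3. The difference between the knockdown effects was called for 4 of the 10, higher in LM2 for EGLN1 and lower for EPAS1, VHL and VEGFA, where 25.8% of all genes were called (13.9% higher and 11.9% lower). With limma on log2(FPKM + 1) the split of these calls was 998 higher and 2096 lower, against 2221 and 1892 with edgeR. EGLN1 was the least stable of the 4 (0.63 ± 0.24, adjusted p = 0.0439 by edgeR, lost in 10 of 14 alternatives), and kept its call with 1 library left out only for MDA-MB-231 control replicate 3 and LM2 shTAF7 replicate 3.

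With the control hairpin, LM2 had more EPAS1, VHL, VEGFA and VEGFC than MDA-MB-231 and less EGLN3. EPAS1 averaged 94.4 ± 9.31 CPM in LM2 and 45.4 ± 0.939 CPM in MDA-MB-231 (SD, n = 2 each), 2.08-fold higher (adjusted p = 5.08e-16 by edgeR). VHL was 2.42-fold higher, at 76.9 ± 6.93 against 31.8 ± 1.80 CPM, and VEGFA was 2.64-fold higher, at 339.1 ± 1.18 against 128.6 ± 3.22 CPM. VEGFC was 2.25-fold higher, at 46.2 ± 0.775 against 20.6 ± 0.416 CPM. EGLN3 was at 33.2% of MDA-MB-231, with 6.04 ± 0.522 against 18.2 ± 1.23 CPM (log2 change -1.59 ± 0.14, adjusted p = 2.27e-14 by edgeR). EGLN2 was higher in LM2 by 0.89 ± 0.25 on the log2 scale (adjusted p = 0.00171 by edgeR) at the low counts given above. ARNT (0.21 ± 0.09, adjusted p = 0.0425) and EGLN1 (-0.48 ± 0.17, adjusted p = 0.0132) passed edgeR's test narrowly and lost their calls in some alternatives. For ARNT these were 9 of 15, among them leaving out either MDA-MB-231 control library, either LM2 shTAF7 library or LM2 control replicate 3. For EGLN1 they included leaving out MDA-MB-231 control replicate 2 (adjusted p = 0.133) or LM2 control replicate 2 (adjusted p = 0.0626). HIF1A (-0.12 ± 0.07) and VEGFB (0.11 ± 0.10) did not pass. HIF1A was called lower in LM2 in 5 of 15 alternatives: the fit on the compared libraries alone (adjusted p = 0.0393), and without MDA-MB-231 shTAF7 replicate 2, LM2 shTAF7 replicate 2, LM2 shTAF7 replicate 3 or LM2 control replicate 3. Without LM2 control replicate 3 the HIF1A change was -0.20 (adjusted p = 0.0339 by edgeR). In all, 6 of the 10 were higher and 2 lower, where 64.4% of all tested genes were called (32.2% higher and 32.1% lower).

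With the TAF7 hairpin, the order of the lines was turned round for EPAS1 and VEGFA. EPAS1 averaged 23.0 ± 2.48 CPM in LM2 and 42.0 ± 1.84 CPM in MDA-MB-231, so that LM2 stood at 54.8% (log2 change -0.87 ± 0.09, adjusted p = 1.4e-11 by edgeR). VEGFA averaged 99.1 ± 2.52 CPM in LM2 and 147.2 ± 0.131 CPM in MDA-MB-231, so that LM2 stood at 67.3% (log2 change -0.57 ± 0.07, adjusted p = 5.44e-10 by edgeR). VHL (1.55-fold) and VEGFC (1.86-fold) were still higher in LM2, and EGLN3 was still lower, at 35.2% of MDA-MB-231. EGLN2 was higher by 0.68 ± 0.27 and HIF1A lower by 0.19 ± 0.07 on the log2 scale (adjusted p = 0.0256 and 0.0199, edgeR). HIF1A lost its call without MDA-MB-231 shTAF7 replicate 2 (adjusted p = 0.31) or LM2 shTAF7 replicate 3 (adjusted p = 0.178), and EGLN2 lost its call in 5 of 15 alternatives, which were DESeq2 and leaving out any 1 of the 4 shTAF7 libraries. In all, 3 of the 10 were higher and 4 lower, where 62.5% of all tested genes were called (30.9% higher and 31.6% lower). The LM2 control libraries enter both the knockdown comparison in LM2 and the comparison of control lines, and each group is likewise shared by a knockdown and a line comparison, so these values stand side by side and are not separate evidence.

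**Figure D3:**
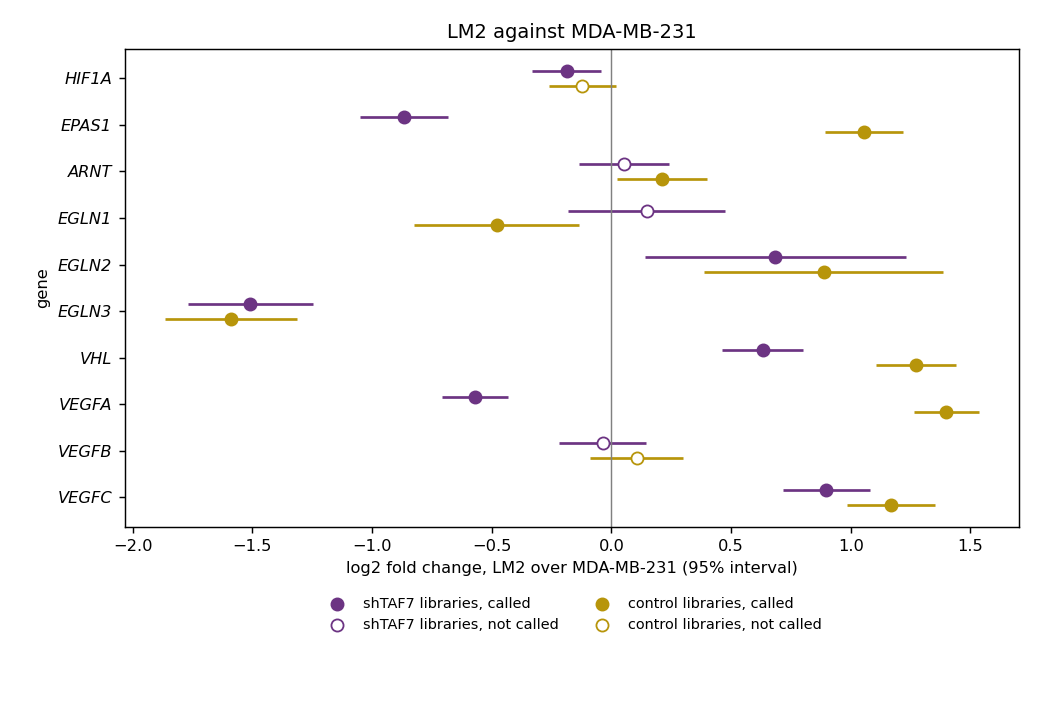
Log2 fold change of each gene, LM2 over MDA-MB-231, in the shTAF7 libraries and in the control libraries, with 95% intervals from edgeR; filled points passed an adjusted p of 0.05. EPAS1 and VEGFA change sides (-0.87 and -0.57 with shTAF7, against 1.05 and 1.40 with control), while EGLN3, VHL and VEGFC keep theirs.

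Levels can be compared between genes only per length, on the deposited FPKM scale (fragments scaled to gene length and library size). HIF1A had the highest level of the 10 in all 4 groups, at 32.4 ± 2.03 FPKM in LM2 shTAF7, 50.8 ± 3.35 in LM2 control, 39.1 ± 3.24 in MDA-MB-231 shTAF7 and 54.2 in MDA-MB-231 control. VEGFA came second in LM2 control (24.3 FPKM), ahead of VEGFC (18.3), VEGFB (16.7) and VHL (15.9), the last pair overlapping between libraries, and then EPAS1 (13.4), ARNT (7.26), EGLN1 (0.98), EGLN3 (0.845) and EGLN2 (0.64). In LM2 shTAF7, VEGFB (19.3 FPKM) and VEGFC (15.3) came second and next, then VHL (9.30), VEGFA (6.50, overlapping with ARNT), EPAS1 (2.99), EGLN1 (1.30), EGLN3 (0.925) and EGLN2 (0.41). In both MDA-MB-231 groups VEGFB came second, at 21.0 FPKM with shTAF7 and 15.3 FPKM with control, followed by VEGFA (10.2 and 9.04) and VEGFC (8.71 and 7.98). EGLN3 was the most abundant hydroxylase in MDA-MB-231 (2.78 FPKM with shTAF7 and 2.51 with control), where EGLN1 was at 1.24 and 1.34 FPKM, and in LM2 EGLN1 was ahead of EGLN3.

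The balance between alpha subunits and between ligands followed from these levels. The ratio of HIF1A to EPAS1 in FPKM was 10.4 and 11.4 in LM2 shTAF7 libraries, against 3.90 and 3.70 in LM2 control libraries, and 6.99 and 6.52 in MDA-MB-231 shTAF7 libraries, against 8.66 and 8.50 in MDA-MB-231 control libraries. The shTAF7 libraries had the higher ratio in LM2 and the lower one in MDA-MB-231. VEGFA made up 17.2% and 14.5% of the summed FPKM of the 3 ligands in LM2 shTAF7, against 41.3% and 40.7% in LM2 control. In MDA-MB-231 it made up 26.6% and 24.7% with shTAF7, against 28.0% and 28.0% with control. The summed level was 39.0 and 43.3 FPKM in LM2 shTAF7, against 58.8 and 59.8 FPKM in LM2 control, and 38.2 and 41.8 FPKM in MDA-MB-231 shTAF7, against 31.8 and 32.8 FPKM in MDA-MB-231 control. Thus, on the FPKM scale, the ligand sum was lower with shTAF7 in LM2 and higher with shTAF7 in MDA-MB-231. VEGFB was the largest share in every group but LM2 control. The FPKM scale carries no TMM factor, which was 0.960 and 0.935 in LM2 shTAF7, against 1.032 and 1.039 in LM2 control. The size of the LM2 difference in the sum therefore depends on the scale.

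**Figure D4:**
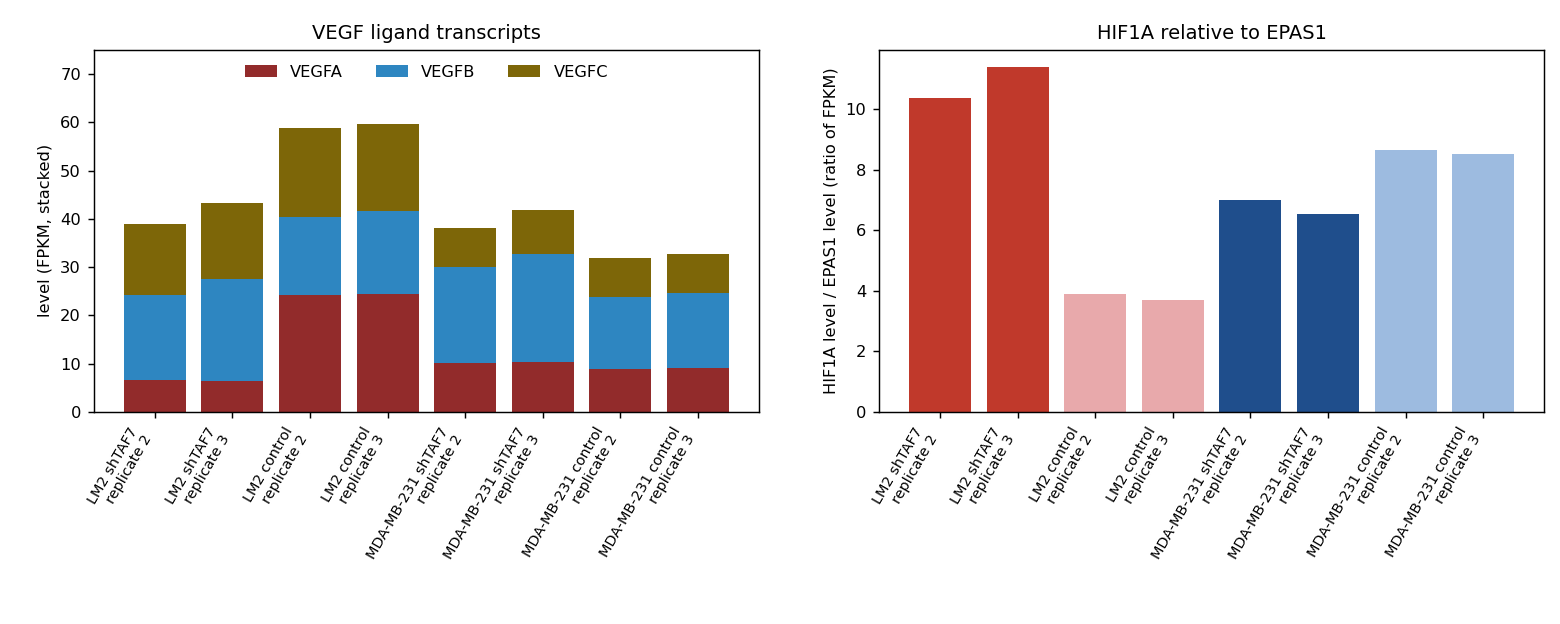
Left, FPKM of VEGFA, VEGFB and VEGFC stacked for each of the 8 libraries; right, the ratio of HIF1A to EPAS1 FPKM in each library. The VEGFA segment is largest in the LM2 control libraries (41.3% and 40.7% of the sum) and the ratio is lowest there (3.90 and 3.70).

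Other HIF machinery was mixed. Of 13 tested genes of 15 listed (HIF3A had 0 counts and CITED4 at most 19), 4 rose and 3 fell in LM2 with a median log2 change of 0.08, and 4 rose and 4 fell in MDA-MB-231 with a median of -0.05. These are 53.8% and 61.5% of the 13, where 41.3% and 25.6% of all tested genes were called. EP300, a histone acetyltransferase and HIF coactivator, fell in both lines. It had 39.8 and 34.5 CPM in LM2 shTAF7 libraries, against 53.0 and 56.6 CPM in LM2 control libraries, and 77.4 and 64.2 CPM in MDA-MB-231 shTAF7 libraries, against 119.1 and 117.1 CPM in MDA-MB-231 control libraries. The reductions were 0.56 ± 0.09 in LM2 and 0.74 ± 0.08 in MDA-MB-231 (adjusted p = 6.63e-07 and 6.53e-10, edgeR). Of the VHL ligase subunits, the RING protein RBX1 (0.60 ± 0.08 in LM2 and 0.25 ± 0.07 in MDA-MB-231) and the elongins ELOB (0.32 ± 0.08 and 0.40 ± 0.08) and ELOC (0.26 ± 0.08 and 0.39 ± 0.08) rose in both lines. ELOB and ELOC lost their LM2 calls without LM2 shTAF7 replicate 3, ELOC also without LM2 control replicate 3, and RBX1 lost its MDA-MB-231 call without MDA-MB-231 control replicate 2 or 3. CUL2, another subunit of that ligase, was not called on knockdown in either line. It averaged 155.1 CPM in LM2 shTAF7 against 156.2 in LM2 control, and 110.7 in MDA-MB-231 shTAF7 against 114.2 in MDA-MB-231 control. CITED2, a competitor of HIF for EP300, fell in LM2 by 0.57 ± 0.08. The counts of 4 were 2 without LM2 shTAF7 replicate 3 (higher, LM2), without MDA-MB-231 control replicate 2 (higher, MDA-MB-231) and without MDA-MB-231 shTAF7 replicate 3 (lower, MDA-MB-231), and limma on log2(FPKM + 1) called 1 higher in LM2.

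Of 4 tested receptors, coreceptors and other ligands of the 7 listed, 1 fell in LM2, and 1 rose and 1 fell in MDA-MB-231. These are 25% and 50% of the 4, where 41.3% and 25.6% of all tested genes were called. With the control hairpin, 3 were higher in LM2 than in MDA-MB-231: NRP1 (log2 change 1.52 ± 0.07), NRP2 (0.74 ± 0.12) and KDR (3.37 ± 0.31). Of all tested genes, 64.4% were called between the control lines, 32.2% of them all being higher in LM2 and 32.1% lower. FLT1, FLT4 and VEGFD had at most 4, 5 and 5 counts and were not tested. NRP1, a coreceptor of VEGFA, had 324.4 and 322.2 CPM in LM2 shTAF7 and 405.1 and 379.7 CPM in LM2 control, with 170.9 and 162.5 CPM in MDA-MB-231 shTAF7 and 136.1 and 138.3 CPM in MDA-MB-231 control. It fell in LM2 by 0.28 ± 0.07 and rose in MDA-MB-231 by 0.28 ± 0.07 (adjusted p = 0.000578 and 0.0018, edgeR), and the difference between the lines was -0.56 ± 0.10 (adjusted p = 1.21e-05 by edgeR). Without MDA-MB-231 control replicate 2 the increase was 0.27 and lost its call (adjusted p = 0.0706). KDR, the main signalling receptor of VEGFA, had 95 and 101 counts in LM2 shTAF7 and 101 and 113 in LM2 control, against 11 and 8 counts in MDA-MB-231 shTAF7 and 7 and 14 in MDA-MB-231 control. Its knockdown changes did not pass the test (-0.16 in each line). PGF, a further VEGF family ligand, fell in MDA-MB-231 by 0.41 ± 0.11 (adjusted p = 0.00415 by edgeR) and was at 0.06 ± 0.11 in LM2.

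HIF target genes moved in both directions in LM2. Of 35 tested genes of 36 listed (EPO had at most 3 counts), 15 rose and 8 fell in LM2 with a median log2 change of 0.19, and 19 rose and 0 fell by edgeR in MDA-MB-231 with a median of 0.27. None was lower there at an unadjusted p under 0.05 by edgeR (0 genes), and DESeq2 and limma on log2(FPKM + 1) also called 0 lower. Of all tested genes, 21.8% were higher and 19.4% lower in LM2, and 12.6% higher and 12.9% lower in MDA-MB-231, with medians of -0.02 and 0.01. Of the targets, 10 rose in both lines, which is 66.7% of those that rose in LM2 and 52.6% of those that rose in MDA-MB-231. The share of all tested genes that rose in both lines was not counted, so these shares are not shown to be particular to HIF targets. BNIP3, a mitophagy receptor, had 456.0 and 486.2 CPM in LM2 shTAF7 libraries, against 316.6 and 300.9 CPM in LM2 control libraries, and 350.2 and 339.3 CPM in MDA-MB-231 shTAF7 libraries, against 221.0 and 219.3 CPM in MDA-MB-231 control libraries. It rose by 0.61 ± 0.07 in LM2 and 0.65 ± 0.07 in MDA-MB-231 (adjusted p = 3.79e-10 and 6.79e-10, edgeR). The glycolytic regulator PFKFB4 (0.48 ± 0.09 and 0.58 ± 0.09) and the glycolytic enzyme LDHA (0.47 ± 0.08 and 0.23 ± 0.08) also rose in LM2 and in MDA-MB-231, although LDHA lost its MDA-MB-231 call without MDA-MB-231 shTAF7 replicate 2, control replicate 2 or control replicate 3.

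Another 6 targets fell in LM2 and rose in MDA-MB-231: ADM, BHLHE40, DDIT4, LOX, MXI1 and TMEM45A. The difference between the lines was called for all 6, but it is built from the same opposite changes and is not separate evidence. The share of all tested genes with such opposite calls was not counted. DDIT4, an inhibitor of mTORC1 signalling, had 160.6 and 178.4 CPM in LM2 shTAF7 libraries, against 371.8 and 361.3 CPM in LM2 control libraries, and 256.4 and 247.1 CPM in MDA-MB-231 shTAF7 libraries, against 203.7 and 210.2 CPM in MDA-MB-231 control libraries. It fell by 1.11 ± 0.07 in LM2 and rose by 0.28 ± 0.07 in MDA-MB-231 (adjusted p = 3.54e-18 and 0.00151, edgeR). LOX, a collagen crosslinking enzyme, fell by 0.49 ± 0.07 in LM2 and rose by 0.55 ± 0.08 in MDA-MB-231. MXI1, a MYC antagonist, fell by 0.73 ± 0.10 in LM2 and rose by 0.27 ± 0.09 in MDA-MB-231. The MDA-MB-231 increases of DDIT4 and MXI1 lost their calls without MDA-MB-231 control replicate 2, and that of MXI1 also without shTAF7 replicate 2 or control replicate 3, with DESeq2 and with limma. The TMEM45A calls in both lines were lost in some alternatives, among them leaving out LM2 shTAF7 replicate 3 or LM2 control replicate 3 for LM2, and MDA-MB-231 shTAF7 replicate 2, MDA-MB-231 control replicate 3 or LM2 control replicate 3 for MDA-MB-231. The 19 that rose in MDA-MB-231 were 11 without MDA-MB-231 control replicate 2. The 8 that fell in LM2 were 5 without LM2 control replicate 3, and the 15 that rose in LM2 were 8 with limma on log2(FPKM + 1).

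**Figure D5:**
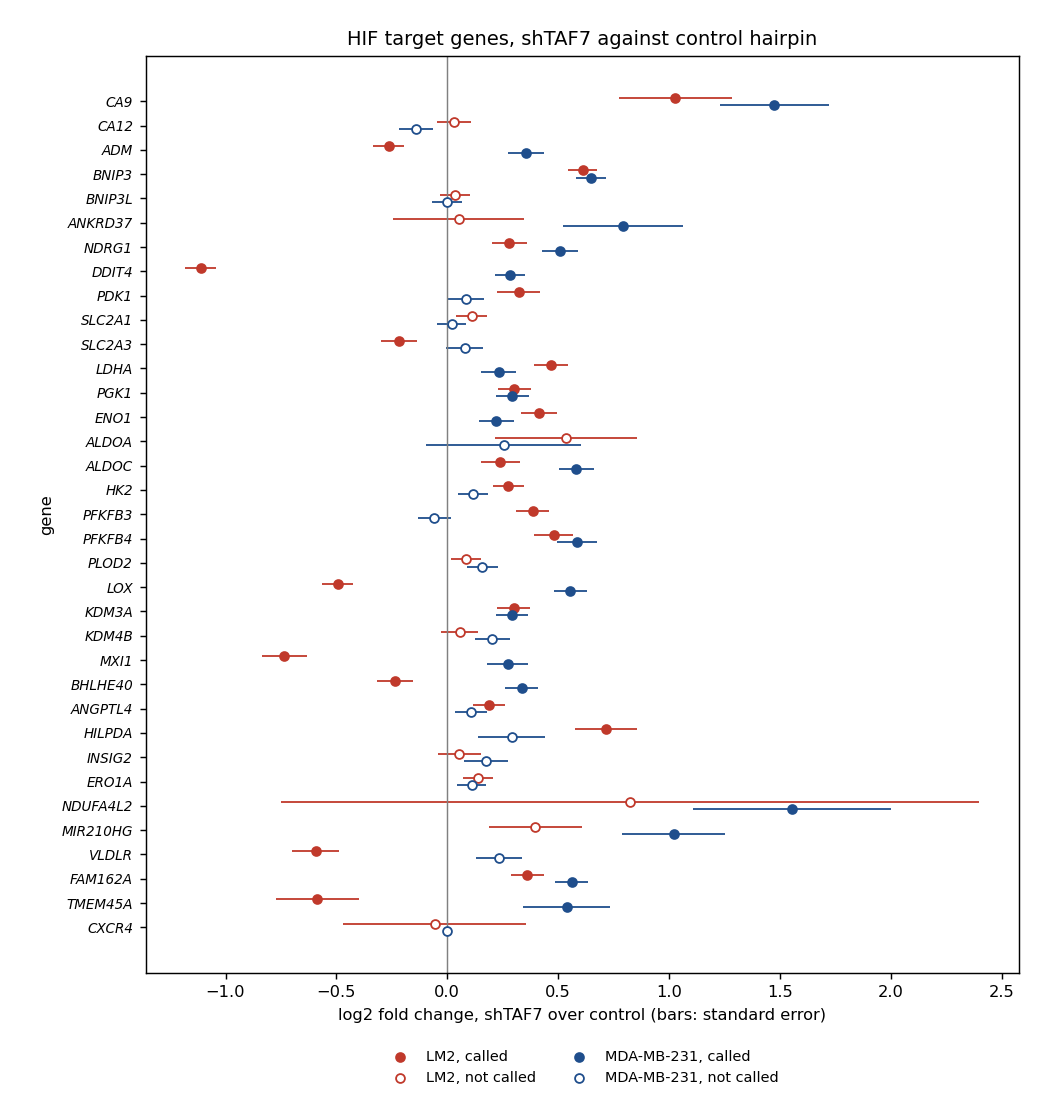
Log2 fold change of 35 HIF target genes, shTAF7 over control, in LM2 and in MDA-MB-231, with the SE as bars; filled points passed an adjusted p of 0.05. BNIP3 and PFKFB4 lie to the right in both lines, while DDIT4 (-1.11 and 0.28) and LOX (-0.49 and 0.55) lie on opposite sides; CXCR4 had 0 counts in every MDA-MB-231 library, so its MDA-MB-231 point carries no estimate and no bar.

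Between the lines, targets were called in both directions. With the control hairpin 11 were higher in LM2 and 15 lower, with a median of -0.00, and with shTAF7 7 were higher and 15 lower, with a median of -0.15. The shares called were 74.3% and 62.9% of the 35, against 64.4% and 62.5% of all tested genes. ADM, the vasodilator adrenomedullin, was higher in LM2 by 1.81 ± 0.08 with control and 1.19 ± 0.07 with shTAF7, and the collagen lysyl hydroxylase PLOD2 by 1.12 ± 0.07 and 1.05 ± 0.07. The glycolytic enzymes PGK1 (-1.07 ± 0.08 with control and -1.06 ± 0.08 with shTAF7) and ALDOC (-0.87 ± 0.09 and -1.22 ± 0.08) were lower in LM2, as was the pyruvate dehydrogenase kinase PDK1 (-1.28 ± 0.09 and -1.04 ± 0.09).

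Of 16 tested secreted angiogenic factors and inhibitors of 18 listed, 3 rose and 1 fell in LM2, and 4 rose and 1 fell in MDA-MB-231. These are 25% and 31.2% of the 16, where 41.3% and 25.6% of all tested genes were called. The inhibitor THBS1 (thrombospondin) had 185.4 and 188.6 CPM in LM2 shTAF7 libraries, against 185.9 and 187.2 CPM in LM2 control libraries, and 164.4 and 137.8 CPM in MDA-MB-231 shTAF7 libraries, against 310.6 and 316.3 CPM in MDA-MB-231 control libraries. It fell by 1.05 ± 0.07 in MDA-MB-231 (adjusted p = 7.69e-16 by edgeR), and its value in LM2 was 0.00 ± 0.07. The peptide APLN (apelin) rose in LM2 by 1.45 ± 0.16 and was at -0.26 ± 0.21 in MDA-MB-231. EDN1, the vasoconstrictor endothelin, rose in LM2 by 0.40 ± 0.07. ESM1 rose in both lines, by 0.60 ± 0.09 in LM2 and by 2.38 ± 0.33 in MDA-MB-231. Its MDA-MB-231 control level rested on 17 counts over 2 libraries. With the control hairpin ESM1 was higher in LM2 by 6.70 ± 0.18. The gene that fell in LM2 was not called by DESeq2 or without LM2 shTAF7 replicate 2 or LM2 control replicate 2, and the 4 that rose in MDA-MB-231 were 2 without MDA-MB-231 control replicate 3. With the control hairpin 10 of the 16 were higher in LM2 and 4 lower, with a median of 1.17, where 32.2% of all tested genes were higher and 32.1% lower, with a median of 0.02.

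Across all 8 libraries, the genes whose log2 CPM ran most nearly parallel to each of 5 members were found among 10750 genes, as a description over 4 groups of 2. For VEGFA they were CXCL8 (Pearson r = 0.999), IGFN1 (0.995) and SOD2 (0.985). For EPAS1 they were HBEGF (0.990), ABLIM3 (0.990) and XBP1 (0.986), and for HIF1A they included PCNX1 (0.987) and ACO1 (0.980). For EGLN3 they were CDS2 (0.998), MAP2K1 (0.996) and ERO1A (0.995), the last an endoplasmic reticulum oxidase that is itself on the HIF target list. For VEGFC they were LRRFIP2 (0.998), CCNJL (0.997) and SERPINB2 (0.996).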

How the data were processed

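RNA from 8 libraries (4 groups of 2) was analysed. The deposited read counts per gene are whole numbers without normalization. The deposited FPKM values carry the authors' scaling to length and library total, as judged from the values. For 3401 genes with at least 10 FPKM, count divided by FPKM was scaled to the mean of each gene. The median of this value over the genes, taken per library, tracked the totals within 0.00015%. STAR 2.7.10a and the build hg19 are named in the submitters' processing notes without a role. No source used here gives the counting program, its strandedness or the annotation. This could matter most for genes that overlap others or have few reads.

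Genes were filtered with filterByExpr (15923 kept), scaled with TMM and fitted with edgeR's quasi-likelihood model over all 8 libraries with a mean per group (R 4.3.3, edgeR 4.0.16; 4 residual degrees of freedom). The 4 groups shared 1 estimate of the spread, although the chi-square of counts between the libraries of a group, per degree of freedom, was unequal. It was 6.33 in LM2 shTAF7, 3.60 in LM2 control, 6.79 in MDA-MB-231 shTAF7 and 2.25 in MDA-MB-231 control. No alternative gave each group its own spread. A call is an adjusted p (Benjamini-Hochberg, over all genes tested) under 0.05. The comparisons were 2 knockdown contrasts, 2 line contrasts and the difference between knockdown effects. CPM is the count scaled to the total of the tested genes and the TMM factor. The ± after a fold change is the SE. The 15 alternatives were other size factors, DESeq2 1.42.0, no filter, a fit on the libraries compared alone, each library left out in turn, a block for the replicate number, and limma 3.58.1 on log2(FPKM + 1) and log2(FPKM + 0.1). The limma fits used the deposited FPKM without a TMM factor. The edgeR fit was tested on simulated counts. All 10 genes and TAF7 were examined in every comparison. From each pathway list, up to 4 called genes per direction with the largest change were picked, averaging 5 CPM or more, whose groups did not overlap. Not all of the picked genes are named in the text. Other genes (KDR, FLT1, FLT4, VEGFD, BHLHE40, PFKFB3 and CXCR4, untested genes of the lists, and the values of a named gene in its other comparisons) were added after their values were seen, as were the counts of each list under the alternatives. The members, lists and promoter motifs were chosen with earlier results of these data known. For HIF1A, 1 of the genes with the most similar pattern is not reported here.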

Additional observations from a re-analysis of the deposited data

Results flagged for a closer look

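For 27 genes, among the 10 members, TAF7 and the tested genes of the 4 pathway lists, the knockdown effect differed between LM2 and MDA-MB-231 by a direct test of the difference. Of all tested genes, 25.8% were called for this difference. The share was 25.7% of 35 HIF targets, 38.5% of 13 HIF machinery genes and 37.5% of 16 secreted factors and inhibitors. It was 40% of the 10 members and 50% of 4 VEGF family genes and receptors. All values below are log2 differences, the effect in LM2 minus that in MDA-MB-231, with the SE and the edgeR quasi-likelihood adjusted p.

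Of the 10 HIF and VEGF genes, the difference was called for EPAS1 (-1.92 ± 0.12, adjusted p = 2.3e-17), EGLN1 (0.63 ± 0.24, adjusted p = 0.0439), VHL (-0.64 ± 0.12, adjusted p = 4.04e-05) and VEGFA (-1.97 ± 0.10, adjusted p = 1.73e-21). It was also called for the targeted gene, TAF7 (0.34 ± 0.09, adjusted p = 0.00544), whose reduction was smaller in LM2.

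Among HIF machinery the difference was positive for ARNT2 (0.53 ± 0.15, adjusted p = 0.00686), HIF1AN (0.30 ± 0.10, adjusted p = 0.027), RBX1 (0.35 ± 0.11, adjusted p = 0.0114) and SENP1 (0.37 ± 0.12, adjusted p = 0.0141), and negative for CITED2 (-0.39 ± 0.11, adjusted p = 0.0049). Among VEGF family genes and receptors it was called for PGF (0.48 ± 0.16, adjusted p = 0.0177) and NRP1 (-0.56 ± 0.10, adjusted p = 1.21e-05).

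Among HIF targets the difference was negative for ADM (-0.62 ± 0.11, adjusted p = 1.31e-05), DDIT4 (-1.39 ± 0.10, adjusted p = 6e-16), ALDOC (-0.34 ± 0.12, adjusted p = 0.027) and LOX (-1.05 ± 0.10, adjusted p = 3.02e-11). It was also negative for MXI1 (-1.01 ± 0.14, adjusted p = 1.25e-07), VLDLR (-0.83 ± 0.15, adjusted p = 2.46e-05), BHLHE40 (-0.57 ± 0.11, adjusted p = 6.88e-05) and TMEM45A (-1.12 ± 0.27, adjusted p = 0.00135). It was positive for PFKFB3 (0.44 ± 0.10, adjusted p = 0.00108).

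Among other secreted angiogenic factors and inhibitors it was negative for FGF1 (-1.28 ± 0.44, adjusted p = 0.0272), PDGFA (-0.59 ± 0.15, adjusted p = 0.00199) and ESM1 (-1.78 ± 0.35, adjusted p = 0.000114), and positive for EDN1 (0.58 ± 0.12, adjusted p = 0.000128), APLN (1.71 ± 0.26, adjusted p = 1.58e-06) and THBS1 (1.06 ± 0.10, adjusted p = 1.52e-11). FGF1 and ESM1 each had only 17 counts over the 2 MDA-MB-231 control libraries. For ESM1 the negative value means a smaller rise in LM2, since it rose in both lines.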

How the results depend on the processing

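No called result for the 10 members, TAF7 or the genes picked from the lists changed sign under the alternatives. There were 15 alternatives for each comparison of 2 groups and 14 for the difference between knockdown effects. KDR, BHLHE40 and PFKFB3, which are named but were not picked, were not followed gene by gene. Of 740 values for the 10 genes under alternatives, 686 stayed on their side of the threshold, 43 lost their call and 11 gained one. Outside the leave-one-out fits, 68 of 68 totals of called genes stayed within 1.5 times the original. These totals took both directions together, over all genes or over the 10. Some counts in 1 direction and list counts moved by more, with limma, with DESeq2 or without the filter. For the difference between knockdown effects, 1 HIF target was called higher with edgeR. That count was 2 with DESeq2, 3 without the filter and 0 with limma on log2(FPKM + 1). With each library left out in turn, the number of called genes ranged from 2031 to 4408 for the knockdown in MDA-MB-231 (4070 with all libraries) and from 4925 to 6859 in LM2 (6570). It ranged from 9077 to 10631 between control lines, from 9031 to 10010 between shTAF7 lines and from 2933 to 4180 for the difference between knockdown effects. The number of the 10 genes called ranged from 2 to 3, 5 to 6, 6 to 9, 5 to 7 and 3 to 4 in the same order.

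Deviations of same-numbered libraries correlated at -0.14 to 0.0708 over 10751 genes. Each group gives only 1 deviation per gene, so this cannot show whether same-numbered libraries were handled together, and the labels do not say. With the replicate number as a block, 4053 and 6554 genes were called for the knockdown in MDA-MB-231 and LM2, 10203 and 9901 between control and shTAF7 lines and 4128 for the difference, and 3, 6, 8, 7 and 4 of the 10 genes, the same numbers as without it. With limma on log2(FPKM + 0.1) the split of calls was 1830 higher and 3904 lower for the knockdown in LM2, and 944 and 2002 for the difference, against 3478 and 3092, and 2221 and 1892, with edgeR. The limma fits carried no TMM factor. The TMM factors were 0.960 and 0.935 in LM2 shTAF7, against 1.032 and 1.039 in LM2 control. They were 0.997 and 1.011 in MDA-MB-231 shTAF7, against 1.018 and 1.013 in MDA-MB-231 control. The cause of the shifted split was not tested. Depth limits EGLN2 (30 to 78 counts) most.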
